A study of Homo sapiens with 8 samples.

Results

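ETV1 (also ER81), ETV4 (PEA3) and ETV5 (ERM) form the PEA3 group of ETS transcription factors. They were taken by gene symbol from the deposited tables, and all 3 were found among the 20344 genes listed in either table, with at least 1 read in every library. PEA3 factors are activators that read out signalling from fibroblast growth factor (FGF) receptors through RAS and the kinase ERK. Their genes are held down by the repressor Capicua (CIC), which ERK relieves, and their proteins are marked for degradation by the COP1 ubiquitin ligase. The 3 factors bind much the same DNA sequences through closely related ETS domains, so loss of one member raises the question of how much PEA3 transcript remains and whether the others rise in its place.

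RNA was measured in H9 (WiCell WA09) cells, an established human embryonic stem cell (hESC) line grown on Matrigel in mTeSR1 or TeSR-E8 medium. The crowding experiment compared 2 libraries of cells labelled small (low density) with 2 of cells labelled crowded (high density), in which the cells could attach only to drops of Matrigel. The ETV4 knockdown (KD) experiment compared 2 libraries labelled Ctrl (control hairpin, shControl) with 2 labelled ETV4 KD (hairpin against ETV4, shETV4). Which hairpin was used is not given in the sources used here, nor whether paired libraries came from separate cultures, so p-values measure only the spread between these libraries. Each library held 50359703 to 62410168 counts on genes, and the counts of replicates varied beyond sampling noise (chi-square over degrees of freedom 5.78 to 23.0). All 8 pluripotency markers, among them POU5F1 and NANOG, were above 1 FPKM in all 4 groups. Their levels were not all alike between groups. NANOG was at 23.6 FPKM at low and 17.6 at high density, and at 26.4 with shControl and 18.8 with shETV4. With shETV4, TDGF1 was lower (337 to 190 FPKM) and LIN28A higher (346 to 492 FPKM). FPKM counts fragments scaled to transcript length and to the library's mapped reads. The markers listed for neuroectoderm, mesendoderm and endoderm summed to at most 1.01 FPKM in any library. Those listed for amnion and trophectoderm summed to 2.20 to 3.32 FPKM, with KRT7 as the 1 gene above 1 FPKM in each group.

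The members lie on different chromosomes of GRCh37, each on the minus strand. ETV1 (Gene ID 2115) spans chr7:13930854-14031050, ETV4 (2118) spans chr17:41605212-41656988 and ETV5 (2119) spans chr3:185764103-185828107. The longest identical stretches between their annotated transcripts are shown because they give the extent of exact identity among the members. Each lies in a single coding exon, and the whole stretch is in capitals.
ETV1 and ETV4, 17 bases, chr7:13935675-13935691 and chr17:41606074-41606090: TACAAGTTTGTGTGTGA
ETV1 and ETV5, 18 bases, chr7:13978754-13978771 and chr3:185798847-185798864: CTATGGAGAAAAGTGCCT
ETV4 and ETV5, 33 bases, chr17:41606561-41606593 and chr3:185769877-185769909: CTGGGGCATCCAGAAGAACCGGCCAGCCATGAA

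ETV1 and ETV4 shared 0 runs of 19 bases and 0 of 21 bases, the usual lengths of a hairpin's guide. ETV4 and ETV5 shared 20 runs of 19 bases and 16 of 21 bases. No pair shared a run of 100 bases. Partial matches were not searched, and the hairpin's own sequence was not analysed here.

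Neighbouring genes overlap the members only slightly. The opposite-strand gene DHX8 shares 68 exonic bases with ETV4, which is 1.94% of the exonic bases of ETV4. DGKG shares 164 bases, 2.84%, with ETV5 on the same strand and was at most at 0.160 FPKM in group means. DHX8 had a mean of 16.6 FPKM at low and 14.6 at high density, and of 15.5 FPKM with shControl and 14.0 with shETV4, which in neither experiment met the criteria for a differentially expressed gene (DEG). DEGs here are those with a log2 fold change beyond 0.5 in either direction at an adjusted p under 0.05.

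ETV4 was the dominant PEA3 transcript in every library. FPKM divides by transcript length, so levels of different genes can be set side by side within a library. Without that division the gap is narrower: in low-density replicate 1 ETV4 had 9601 counts and ETV1 4322, but 73.2 and 11.7 FPKM. ETV4 held 68.4% to 79.8% of the summed PEA3 FPKM over the 8 libraries, and the lowest of these shares came with the hairpin against it.

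Among all ETS genes in the tables ETV4 also ranked 1st in each of the 4 groups. It made up 37.2% of the summed FPKM of 22 ETS genes at low density and 31.6% at high density. Of 24 ETS genes in the KD table it made up 42.2% with shControl and 28.04% with shETV4. ETV1 ranked 4th at low density, 3rd at high density, 3rd with shControl and 7th with shETV4. ETV5 ranked 7th, 8th, 6th and 4th in the same order.

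At low density the order was ETV4, ETV1, ETV5. ETV4 was at 73.2 and 72.6 FPKM in replicates 1 and 2, ETV1 at 11.7 and 13.1 FPKM and ETV5 at 10.7 and 10.4 FPKM. The libraries of ETV1 and ETV5 did not overlap, but their means of 12.4 ± 0.944 and 10.5 ± 0.226 FPKM (SD, n = 2) lay close together. With shControl the order was the same, and there ETV1, at 13.5 and 13.3 FPKM, and ETV5, at 12.8 and 10.7 FPKM, had means closer together than the replicates of ETV5 were to each other.

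**Figure D1:**
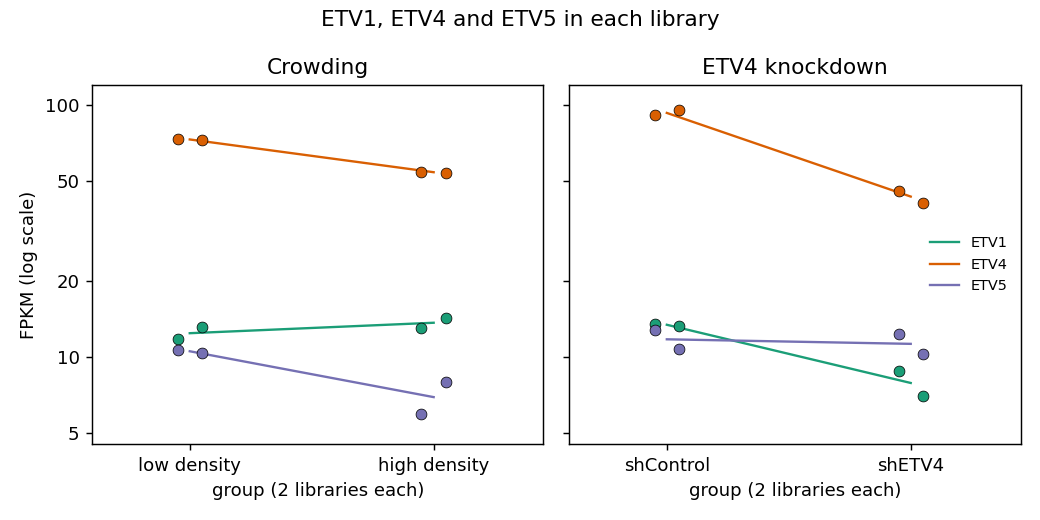
FPKM of ETV1, ETV4 and ETV5 (log scale) in each library, with low and high density on the left and shControl and shETV4 on the right. Points are single libraries and lines join group means. ETV4 is above both other members in every library and falls in both experiments, ETV5 falls on the left and ETV1 on the right.

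Crowding lowered ETV4 and ETV5 RNA and left ETV1 RNA near its low-density level. Protein was not measured here, and the authors report by immunostaining that ETV1, ETV4 and ETV5 protein all fell in crowded cells. ETV4, the member with the most transcript, was at 54.2 and 53.9 FPKM in high-density replicates 1 and 2, against 73.2 and 72.6 at low density. The replicates of ETV4 nearly coincided and the densities were well apart. The log2 fold change of ETV4 was -0.49 (SE 0.06, adjusted p = 9.42e-07, edgeR's quasi-likelihood test), which passed the test and stopped just short of the fold criterion, as it did in every alternative setting run (-0.49 to -0.43). Of all 17672 genes tested, 20.3% passed this test in the lower direction at any size.

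ETV5, which in other tissues often accompanies ETV4 in the response to FGF, was at 10.7 and 10.4 FPKM at low density and at 5.91 and 7.93 FPKM at high density. The high-density values were both below the low-density values, and they differed more from each other than the low-density libraries did. The log2 fold change of ETV5 was -0.66 (SE 0.11, adjusted p = 0.00131, same test), which made it the 1 DEG of the 3 members. Across all genes 16.1% were DEGs, 5.47% lower and 10.7% higher. The call of ETV5 rested on high-density replicate 1: without it the log2 fold change was -0.47, under the criterion, and without replicate 2 it was -0.88.

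ETV1, the member with the longest transcripts, was at 11.7 and 13.1 FPKM at low density and at 13.1 and 14.3 FPKM at high density. The groups overlapped. The log2 fold change of ETV1 was 0.08 (SE 0.06, adjusted p = 0.307, same test) and stayed between 0.01 and 0.17 when 1 library was omitted. A fall of ETV1 as large as that of ETV4 lay outside that range. These fits share libraries, so the range does not bound the change. In bulk RNA, fewer cells that express a gene and less RNA per cell cannot be told apart.

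The family total fell from 95.6 and 96.1 FPKM at low density to 73.2 and 76.1 FPKM at high density, a mean of 77.9% of the low-density mean. The totals did not overlap, as was so for the FPKM of 70.2% of all genes tested, 29% lower and 41.2% higher at high density. The mean total was lower by 21.2 FPKM, to which ETV4 contributed a difference of -18.9 FPKM, ETV5 -3.60 FPKM and ETV1 +1.24 FPKM. With 2 libraries against 2 the smallest two-sided p of an exact permutation test is 0.333, the value found for the total.

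The makeup of the family shifted towards ETV1. Its share was 12.3% and 13.6% at low density and 17.8% and 18.7% at high density, a mean difference of 5.34 percentage points. The share of ETV4 went from 76.5% and 75.6% to 74.1% and 70.8% (-3.61 points), and that of ETV5 from 11.2% and 10.8% to 8.08% and 10.4% (-1.73 points). None of the 3 shares overlapped between densities, and each gave the smallest p that an exact permutation test allows, 0.333. The shares add to 100% in each library, so these are not 3 separate results. Leaving out high-density replicate 1 brought the difference in the ETV5 share to -0.55 points and leaving out replicate 2 to -2.90 points. The ratio of ETV1 to ETV5 was 1.10 and 1.26 at low density and 2.21 and 1.80 at high density.

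ETV4 KD left 46.6% of the ETV4 transcript on average, and ETV1 fell with it. The targeted gene had 90.8 and 95.1 FPKM with shControl, and 45.6 and 40.9 FPKM with shETV4. The latter are 49.1% and 44.04% of the shControl mean in shETV4 replicates 1 and 2, so the libraries followed their labels. The log2 fold change of ETV4 was -1.15 (SE 0.07, adjusted p = 1.60e-04, edgeR's quasi-likelihood test). The remaining ETV4, at 43.3 ± 3.32 FPKM (SD, n = 2), was still above ETV1 and ETV5 together, by 2.17-fold and 2.38-fold in the shETV4 libraries, against 3.45-fold and 3.96-fold in the shControl libraries.

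ETV1 was at 13.5 and 13.3 FPKM with shControl and at 8.77 and 6.99 FPKM with shETV4, or 65.4% and 52.1% of the shControl mean. The groups did not overlap, and shETV4 replicate 2 was the lower of the pair for each of the 3 members. The log2 fold change of ETV1 was -0.77 (SE 0.10, adjusted p = 0.00250, same test) and it remained a DEG in every alternative setting run (-0.91 to -0.64). ETV4 is the hairpin's target, so its fall is not counted here. Of the other 2 members, ETV1 was a DEG, lower, and ETV5 was not. Of the 17879 genes tested 13% were DEGs, 7.1% lower and 5.88% higher.

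ETV5 was at 12.8 and 10.7 FPKM with shControl and at 12.3 and 10.2 FPKM with shETV4. The groups overlapped, and the shETV4 libraries were at 104.7% and 87.1% of the shControl mean. The log2 fold change of ETV5 was -0.06 (SE 0.11, adjusted p = 0.746, same test) and lay between -0.18 and 0.09 with single libraries left out, so that its sign was not settled. A rise in ETV5 large enough to be a DEG lay outside that range, which does not bound the change because the fits share libraries.

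The family total went from 117 and 119 FPKM with shControl to 66.7 and 58.1 FPKM with shETV4, a mean of 52.9% of shControl. The totals did not overlap, as held for 63.3% of all genes tested, 31.5% lower and 31.8% higher (exact permutation test, p = 0.333, the smallest this design allows). ETV4 contributed a difference of -49.7 FPKM, ETV1 -5.53 FPKM and ETV5 -0.479 FPKM. Neither other member was higher on average with shETV4, and the total was lower by 55.7 FPKM, which is 112% of the fall in ETV4 alone.

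Shares can rise while levels do not. The share of ETV5 was 10.9% and 8.998% with shControl and 18.4% and 17.6% with shETV4, a mean difference of 8.07 points, at a nearly equal FPKM. The share of ETV1 was 11.6% and 11.2% with shControl and 13.1% and 12.02% with shETV4 (1.23 points), although its FPKM was lower. ETV4 went from 77.5% and 79.8% to 68.4% and 70.4% (-9.29 points). None of the shares overlapped between hairpins (exact permutation test, p = 0.333 for each, the smallest possible). Here too the shares add to 100% in each library and are not separate results.

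**Figure D2:**
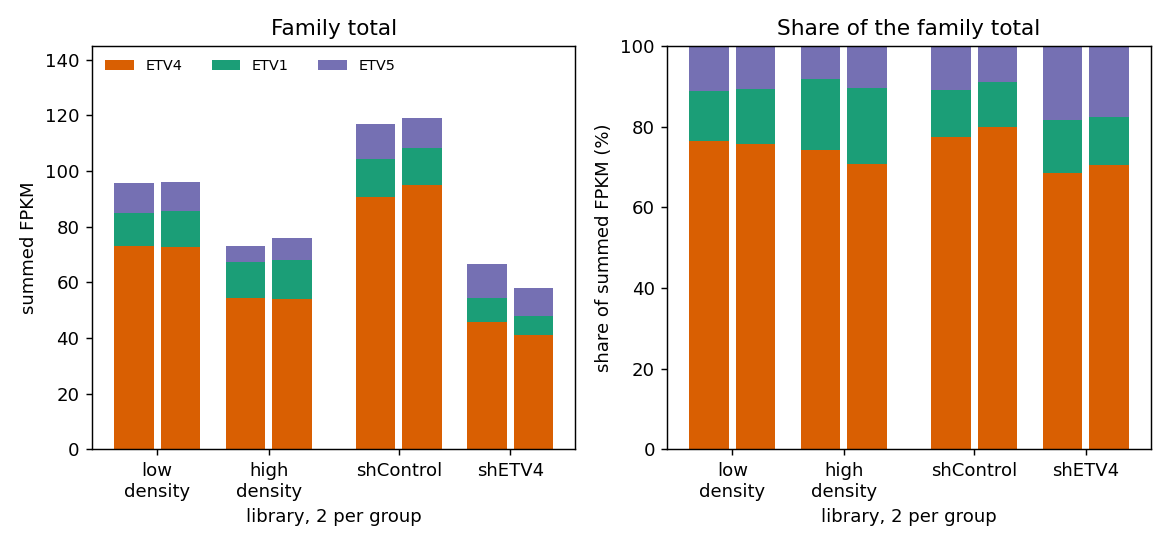
Summed FPKM of the family (left) and the share of each member in percent (right), with 1 bar for each library and replicates 1 and 2 side by side. The total is lower at high density and with shETV4, and ETV4 fills most of every bar. The ETV1 segment widens on the right at high density and the ETV5 segment with shETV4.

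ETV1 and ETV5 changed places in the order between the experiments. The ratio of ETV1 to ETV5 was 1.06 and 1.24 with shControl and 0.713 and 0.683 with shETV4, whereas it was 2.21 and 1.80 at high density. Set side by side, ETV1 had log2 fold changes of 0.08 after crowding and -0.77 after KD, ETV4 of -0.49 and -1.15, and ETV5 of -0.66 and -0.06. The tables were normalized separately, so the difference between the experiments was not tested.

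**Figure D3:**
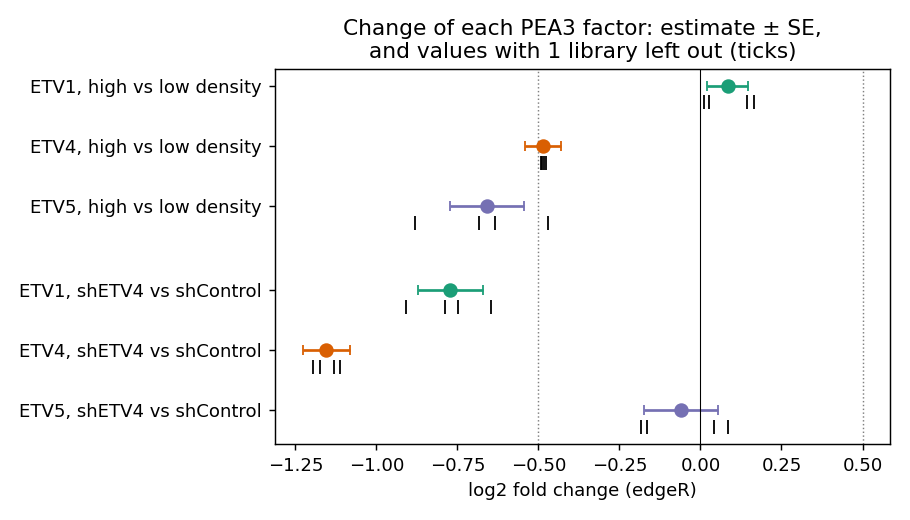
Log2 fold change of each member in each experiment (edgeR). Points are estimates with their standard error, ticks below them the values with 1 library left out, and dotted lines the DEG criterion of 0.5 in either direction. The 4 ticks of ETV5 at high density span -0.88 to -0.47, and those of ETV5 with shETV4 lie on both sides of 0.

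The genes whose pattern was nearest to each member differed among the 3. Likeness was the Euclidean distance between deviations of log2 CPM from each experiment's mean, over 8 libraries and 12475 genes. Among those nearest to ETV1 were GSTK1, USP2, SAP30L and COL5A1, at log2 fold changes of 0.05 to 0.18 after crowding and -0.78 to -0.69 after KD. Nearest to ETV4 were SPOCK1, SZRD1, PAM, MGAT3 and CCT2, at -0.49 to -0.29 after crowding and -1.21 to -0.99 after KD. Nearest to ETV5 were CDKN1A, SLIT2, DSEL, LIF and ELMO1, at -0.73 to -0.47 after crowding and -0.13 to 0.11 after KD. No member was among the 5 nearest to another. ETV1 was the 294th nearest gene to ETV4 and ETV5 the 3469th, both nearer than the median gene (distances of 0.72 and 1.18, median 1.32). From ETV5 the others were farther than the median gene, ETV1 9851st and ETV4 10493rd. From ETV1, ETV4 was 2900th, nearer than the median gene, and ETV5 8848th, farther than it.

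Upstream of the PEA3 genes lie the FGF ligands, their receptors and the kinase cascade. After crowding, 1 of 5 FGF ligands tested was higher and 1 lower, where 10.7% and 5.47% of all genes were (median log2 fold change 0.07, against 0.00 over all genes tested in either experiment). FGF4, a ligand of pluripotent cells, rose from 1.12 to 5.97 FPKM (log2 fold change 2.36). FGF13 fell from 3.07 to 2.04 FPKM (-0.64). It is counted among the ligands here and after KD, although it is an intracellular member of the family. Without high-density replicate 1, or by limma with a pseudocount of 0.5 or 1, 0 ligands were lower. The 4 FGF receptors lay between 0.03 and 0.43, and 0 were DEGs by edgeR, while limma with a pseudocount of 0.5 or 0.1 called 1 higher. FGFR1 (67.4 to 93.9 FPKM, 0.43, adjusted p = 1.45e-06) and FGFR2 (21.5 to 30.6 FPKM, 0.43, adjusted p = 6.09e-06) passed edgeR's quasi-likelihood test but not the fold criterion. Of 15 genes from FRS2 to the ERK substrates, 1 was lower and 0 higher (median -0.05), where 5.47% and 10.7% of all genes were. The lower gene was the small GTPase HRAS (17.0 to 9.02 FPKM, -0.97).

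After ETV4 KD, 2 of 4 FGF ligands tested were lower and 0 higher (median -0.21), where 7.1% and 5.88% of all genes were, and without shControl replicate 1 there was 1 higher. FGF13 fell from 5.21 to 3.24 FPKM (-0.68). FGF4, which rose with crowding, fell from 0.748 to 0.278 FPKM (-1.41). FGF2, the tested ligand with the most transcript, rose from 26.4 to 36.2 FPKM (0.46). It passed edgeR's quasi-likelihood test (adjusted p = 0.00475) but not the fold criterion. FGF19 was at 7.05 FPKM with shControl and 8.48 with shETV4 (0.27). The 4 receptors lay between -0.36 and 0.02 and held 0 DEGs. FGFR4 (27.3 to 20.7 FPKM, -0.36) passed edgeR's quasi-likelihood test (adjusted p = 0.0151) but not the fold criterion. In the cascade 1 of 15 genes was higher and 1 lower (median -0.01), again near the shares over all genes. HRAS rose from 10.7 to 16.0 FPKM (0.57) and SOS1, which loads RAS with GTP, fell from 6.41 to 4.52 FPKM (-0.50). Neither met the criteria without shControl replicate 1 or without shETV4 replicate 2, nor did SOS1 by limma.

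CIC and its partners repress the PEA3 genes. CIC was at 8.75 FPKM at low density and 9.41 at high density (log2 fold change 0.08), and had 5.74 FPKM with shControl and 6.72 with shETV4 (0.07). Its partner ATXN1L had log2 fold changes of -0.03 in each experiment. The partner ATXN1 was a DEG after crowding, but at 0.235 and 0.471 FPKM. Limma with a mean FPKM minimum of 0.5 did not test it. Without that minimum limma did not call it, but the pseudocount of 0.5 exceeds both group means and shrinks the change, so this cannot weigh on the call. After KD, ATXN1 was at 0.553 FPKM with shControl and 0.420 with shETV4 (-0.33).

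Of the 9 ubiquitin ligase genes tested, 0 were DEGs after crowding (median -0.06, against 16.1% of all genes) and 1 after KD (median 0.03, against 13%). Without low-density replicate 1 or high-density replicate 2, 1 was lower after crowding. COP1, which recognizes PEA3 proteins, was at 17.2 and 16.4 FPKM at low and high density (-0.13), and at 18.6 and 22.0 FPKM with shControl and shETV4 (0.23, adjusted p = 0.0649). CUL4B, a scaffold of the ligase, fell from 12.9 to 7.55 FPKM after KD (-0.78), against 0.33 after crowding. The pseudokinase TRIB2, a COP1 adaptor, was at -0.50 after crowding, just short of the criterion, and at -0.32 after KD. DET1, DDB1, DDA1, CUL4A, RBX1 and TRIB1 lay between -0.12 and 0.30 in both experiments. The 3 coactivators tested (MED25, EP300 and CREBBP) held 0 DEGs in either experiment.

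One promoter stretch of ETV1 is shown because it holds both a CIC-type octamer and an ETS-type motif. RefSeq gives 6 windows for ETV1 (GRCh38.p14, 250 bases before to 50 after each start site). The letters TGAATGAA, TGAATGGA, CCGGAA and CCGGAAGT were searched on both strands. TGAATGAA or TGAATGGA is in 2.63% of 35116 promoter windows and CCGGAA in 17.3%. CCGGAA was found in 3 windows of ETV1, of which 2 overlap and hold the same site. TGAATGGA was found in 1, with its first base at -125 from the start site. The stretch from -160 to -91 is at chr7:13991516-13991585 on the minus strand, with both motifs in capitals. Promoters of ETV4 and ETV5 were not analysed here.
ETV1 promoter: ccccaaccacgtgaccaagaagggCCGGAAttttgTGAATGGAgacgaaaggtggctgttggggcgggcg

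Genes known to respond to ERK, several of them activated by PEA3 factors, were in part lower after crowding. Of 16 tested, 7 were lower, 1 was higher and 8 were not called (median -0.39), where 5.47% of all genes were lower and 10.7% higher. Without low-density replicate 2 the count of higher genes was 2. DUSP6, a phosphatase of ERK and a known ETV4 target, fell from 38.7 to 12.7 FPKM (-1.67). IER3, an early response gene, fell from 17.6 to 4.89 FPKM (-1.91) and the ephrin receptor EPHA2 from 13.2 to 6.05 FPKM (-1.18). The feedback inhibitor SPRY4 (-0.78), DUSP5 (-0.76), FOSL1 (-0.76) and PHLDA1 (-0.69) were lower too. The zinc finger factor EGR1 rose from 1.17 to 3.11 FPKM (1.36).

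After ETV4 KD the same list was split, with 5 of 16 higher and 3 lower (median -0.06, against 5.88% and 7.1% of all genes). DUSP6 fell from 37.5 to 19.1 FPKM (-0.97), together with DUSP5 (-0.52) and the feedback inhibitor SPRY4 (-0.77). EGR1 rose from 2.04 to 27.6 FPKM (3.76), the AP-1 subunit FOSL1 from 4.14 to 10.7 FPKM (1.40), PHLDA1 from 16.2 to 42.0 FPKM (1.38) and the Sprouty-related SPRED3 from 0.466 to 1.08 FPKM (1.20). DUSP4, unlike DUSP5 and DUSP6, was higher, at 2.02 FPKM with shControl and 3.19 with shETV4 (0.63). IER3 (-0.08) and EPHA2 (-0.03) were not DEGs.

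Genes named in cancer cells as PEA3 targets act mainly in matrix turnover and adhesion. After crowding 6 of 11 tested were lower and 1 higher (median -0.75), where 5.47% and 10.7% of all genes were. The matrix protein SPP1 fell from 41.8 to 10.5 FPKM (-2.05), the filament protein VIM from 85.9 to 42.5 FPKM (-1.07) and the protease PLAU from 11.4 to 5.75 FPKM (-1.04), while the adhesion receptor ICAM1 rose from 1.19 to 2.46 FPKM (0.99). After KD 1 of 12 was lower and 3 higher (median 0.11), where 7.1% and 5.88% of all genes were. The metalloproteinase MMP9 fell from 1.92 to 1.26 FPKM (-0.60), a call that was lost without shControl replicate 1 or 2 or shETV4 replicate 2. Limma with a pseudocount of 0.5 or 1 did not call MMP9 either. The receptor ERBB2 rose from 44.02 to 80.9 FPKM (0.89), SPP1 from 19.9 to 34.7 FPKM (0.80) and VIM from 55.5 to 79.7 FPKM (0.53).

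Of the fibroblast markers, 2 of 5 (COL1A1 and COL1A2) were above 1 FPKM, LUM and DCN were in neither table and COL3A1 was at most at 0.0194 FPKM in group means. The summed list was at 34.4 to 36.4 FPKM with shControl and 51.5 to 55.3 FPKM with shETV4, and at 35.8 to 36.2 FPKM in low-density and 29.9 to 30.0 FPKM in high-density libraries. With shETV4, COL1A1 rose from 21.9 to 43.9 FPKM, whereas COL1A2 was at 13.4 FPKM with shControl and 9.50 with shETV4, so the higher sum came from COL1A1. The list's part in the changes of VIM and SPP1 was not tested.

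Other ETS genes gave 4 lower and 1 higher of 19 tested after crowding (median -0.07), where 5.47% and 10.7% of all genes were. ETS1 (-0.69) and ETS2 (-0.71), close relatives of each other that ERK also phosphorylates, and SPIB (-0.98) were lower and ELF3 was higher (0.72). After KD 5 of 21 were lower and 1 higher (median -0.15), where 7.1% and 5.88% of all genes were. ETS1 fell from 12.2 to 7.16 FPKM (-0.77), ELF2 from 10.2 to 6.39 FPKM (-0.62) and ELF4 from 1.44 to 0.901 FPKM (-0.67), and SPIB rose from 1.98 to 3.26 FPKM (0.75). The count of 5 lower became 3 without shControl replicate 1 or 2 or shETV4 replicate 2, 7 without shETV4 replicate 1 and 2 by limma, and SPIB was not a DEG without shControl replicate 1. ETS2, with 9.60 and 10.04 FPKM, was at 0.07.

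**Figure D4:**
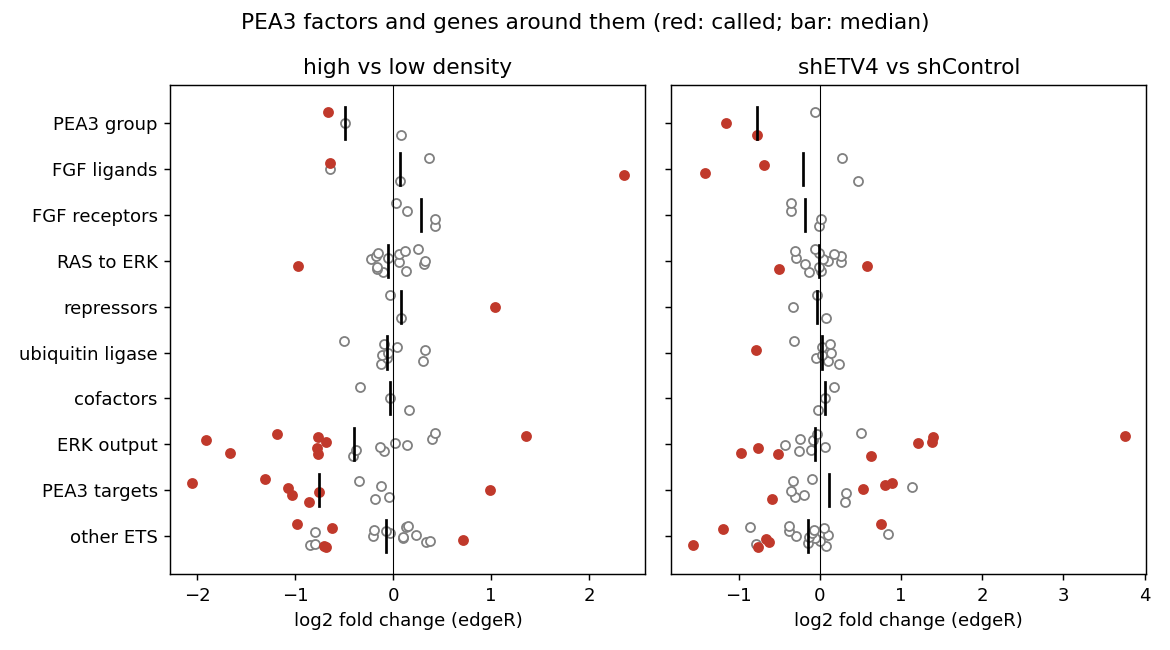
Log2 fold changes (edgeR) of the PEA3 group and of the genes around it, by list, for crowding (left) and ETV4 KD (right). Each point is a gene, red points are DEGs and bars are medians. At high density 7 ERK output genes and 6 PEA3 targets are DEGs below 0, and with shETV4 DEGs of both lists lie on both sides.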

How the data were processed

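The authors prepared poly-A RNA with a stranded kit, used Trimmomatic for trimming and HISAT2 2.1.0 for mapping to GRCh37, and assembled known transcripts with StringTie 2.1.3b (versions from the submitters' processing notes). They deposited, per gene and library, a read count without normalization and an FPKM, in 1 table for each experiment. Whether counting used strand is not given in the sources used here. The tables list only genes with at least 1 read in each of their 4 libraries. They also hold the authors' fold changes, p-values and adjusted p-values, and 16 further per-sample columns; neither were used.

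Within each table the counts went into edgeR 4.0.16 in R 4.3.3, with filterByExpr, TMM scaling and the robust quasi-likelihood test; p-values were adjusted by Benjamini-Hochberg over all genes that passed the filter. The SE is the absolute log2 fold change over the square root of F. Shares, totals and residual levels use the deposited FPKM. The biological coefficient of variation was 6.83% for crowding and 9.93% for KD, so the spread between replicates rather than depth limits precision.

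Groups come from the sample labels. In the KD table the columns headed Test were taken as ETV4 KD. Named genes are the members, the 5 nearest to each, genes overlapping them, all repressor and ligase genes, and up to 4 DEGs per list with the largest change and a mean FPKM of at least 1 in either group. For some of these the value in the other experiment is given too. DUSP4, DUSP5, SPRY4, KRT7, NANOG, TDGF1, LIN28A, FGFR1, FGFR2, FGFR4 and the fibroblast collagens were added after their values were seen. So were FGF2, FGF4 and FGF19 after KD. A result that this rule selects is not reported here. Members and lists were chosen with earlier results of these data known. Alternatives were DESeq2 1.42.0 (size factors and Wald test), no filter, a minimum of 10 counts, the replicate number as a block, limma 3.58.1 on log2(FPKM + 0.5) with pseudocounts of 0.1 and 1 and without the mean FPKM minimum of 0.5, TMM CPM in place of FPKM, and each library left out. The fits were tested on simulated data. Positions are from GENCODE lifted to GRCh37, promoters from RefSeq.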

Additional observations from a re-analysis of the deposited data

How the results depend on the processing

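The changes of ETV1 and ETV4 kept their direction and their side of the criteria in all alternatives run in both experiments. With single libraries left out, the log2 fold change after crowding ranged from 0.01 to 0.17 for ETV1, -0.49 to -0.48 for ETV4 and -0.88 to -0.47 for ETV5, which was no longer a DEG at -0.47, without high-density replicate 1. After KD it ranged from -0.91 to -0.64 for ETV1, -1.20 to -1.11 for ETV4 and -0.18 to 0.0853 for ETV5, which was above 0 without shControl replicate 1 (0.0853) and without shETV4 replicate 2 (0.04). With 1 library in a group, that library was assumed to vary like the others.

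With TMM CPM in place of FPKM, which leaves out transcript length, the shift in share after crowding was 9.10 points for ETV1, and after KD -11.5 points for ETV4 and 10.1 points for ETV5, each in the same direction as with FPKM. Limma called fewer DEGs than the 2851 after crowding, 1717 with log2(FPKM + 0.5), 1256 with a pseudocount of 1 and 1839 without the FPKM minimum, and fewer than the 2321 after KD, 1325 with a pseudocount of 1 and 1502 without the minimum; the cause was not tested. Counts of DEGs per list, added as results after the data were seen, moved by over 1.5 times in 39 of 468 comparisons with the alternatives.

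Replicates with the same number showed little common deviation (correlation across genes -0.04 for crowding and 0.09 for KD). The numbers were not taken to pair the libraries, but such a correlation over all genes cannot exclude pairing. After KD the block gave SEs of 0.067, 0.055 and 0.070 for ETV1, ETV4 and ETV5, against 0.099, 0.073 and 0.115 without it. With the replicate block the log2 fold changes of ETV1, ETV4 and ETV5 were 0.09, -0.49 and -0.67 after crowding and -0.78, -1.15 and -0.06 after KD, no call of a member changed, and DEGs numbered 2874 and 2901. With 2 libraries a group, shares and totals cannot reach 0.05 in an exact permutation test, and no group was large enough to look for libraries that stand apart.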
